A study of Flaveria robusta and Flaveria ramosissima and Flaveria trinervia with 18 samples.

Results

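Transcript abundance in the leaf of Flaveria ramosissima, a C3–C4 intermediate species, was compared with that of Flaveria robusta, a C3 species, both under the control light of 500 µmol m−2 s−1. Each species had 3 libraries from newly expanded mature leaves, and the 6 libraries were part of a series of 18 that also covered the C4 species F. trinervia and a high light of 1400 µmol m−2 s−1. The rows compared were those whose mean reached 1 TPM in F. ramosissima and also in F. robusta, where TPM is the abundance of a gene's transcripts relative to the library total, corrected for gene length. This held for 12427 of the 30040 rows of the table, and these are called the shared rows below. Of them, 6691 were numbered up to 19000 and 5736 above 19000, and the 2 groups of row numbers are reported separately. Rows carry only a gene number, and nothing in the files pairs the numbers with gene names, so no pathway and no leaf marker could be looked up. The labels name no transgene and no treatment other than light. Their growth description also gives a chamber light below both levels of the treatment.

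In C3 plants, CO2 enters the leaf and is fixed by Rubisco in the mesophyll, and the oxygenase reaction of Rubisco gives rise to photorespiration. In C3–C4 intermediates, photorespiratory glycine made in the mesophyll is decarboxylated in the bundle sheath, and the CO2 released there is fixed again. Some intermediate Flaveria species, F. ramosissima among them, also run a part of the C4 cycle, in which phosphoenolpyruvate carboxylase makes the first product. Comparisons of closely related Flaveria species are used to follow which transcripts differ along the way from C3 to C4 photosynthesis. Here 1 species stood for each type, so a difference between these species and a difference between the types of photosynthesis cannot be told apart. In whole leaves, fewer cells of a type and less RNA per cell cannot be told apart either.

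The listed TPM of the 6 libraries added up to 905195 at the lowest and 924952 at the highest. Read depth is unknown, because it cannot be had from TPM, and no detection limit was set for a value of 0. Libraries of the same species resembled each other more than those of different species. Across the shared rows, Pearson correlations of log2(TPM + 1) were between 0.923 and 0.938 for pairs of F. ramosissima libraries, between 0.914 and 0.953 for pairs of F. robusta libraries, and between 0.703 and 0.737 for the 9 pairs across species. These are correlations across rows that share their libraries and serve as a description. The first principal component of the 6 libraries separated the species and held 72.1% of the variance. Whether the 3 replicates of a species came from separate plants is not stated, so p-values measure only the spread between these libraries, which may be technical.

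The species differed in which rows were present before they differed in level, and they did so in opposite directions in the 2 groups of row numbers. Up to 19000, 6691 of 15100 rows (44.3%) reached a mean of 1 TPM in both species, 1062 (7.03%) in F. ramosissima alone and 2135 (14.1%) in F. robusta alone. Above 19000, 5736 of 14940 rows (38.4%) reached it in both, 4856 (32.5%) in F. ramosissima alone and 778 (5.21%) in F. robusta alone. Rows held by the intermediate species alone were thus the larger class above 19000 and the smaller class below. In 4285 of those 4856 rows every F. robusta control library was listed at 0, against 769 of the 1062 rows numbered up to 19000. Rows listed at 0 in all 3 control libraries of F. ramosissima made up 25.7% up to 19000 but 0.897% above. In F. robusta the same shares were 24.5% and 47.6%, and in F. trinervia 26.3% and 46.8%. The C3 and the C4 species therefore shared a pattern of missing rows that the intermediate species did not show. The high-light libraries, which are separate from the control libraries, gave 25.9% and 0.977% in F. ramosissima and 24.6% and 47.7% in F. robusta. The change lay between neighbouring windows of 1000 row numbers. Windows numbered up to 19000 had between 15.1% and 34.2% of rows at 0 in F. ramosissima, and windows above had between 0.3% and 2.61%. The sources used here do not give how rows were paired between the species, and its part in these values was not tested.

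**Figure D1:**
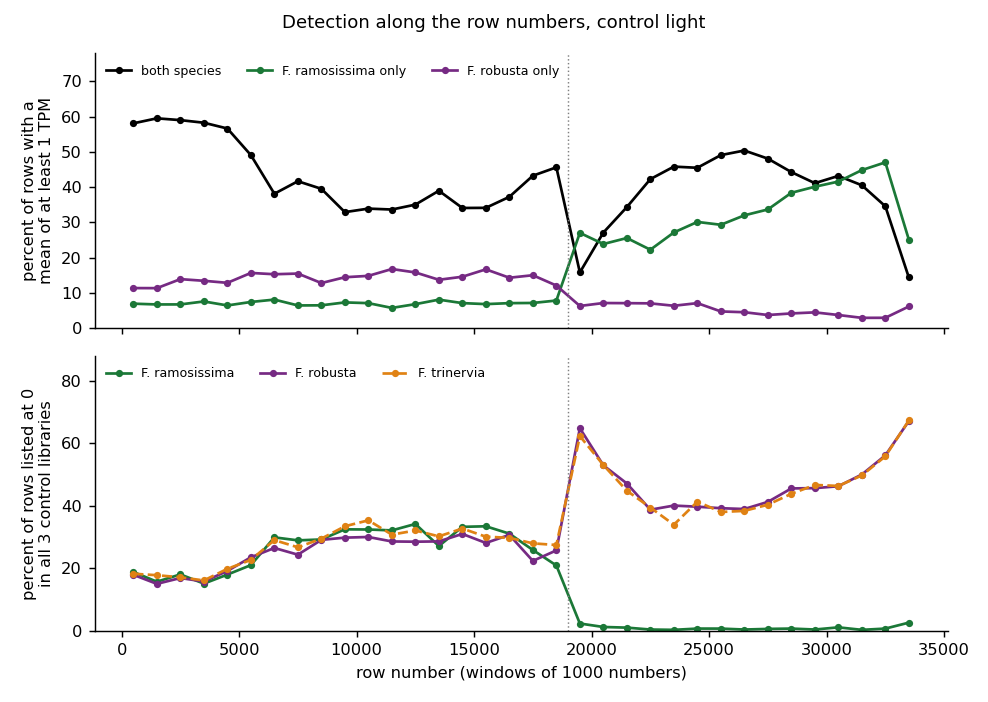
Detection of rows along the row numbers under control light, in windows of 1000 numbers (x axis). The upper panel gives the percent of rows whose mean reached 1 TPM in both species or in 1 species only, and the lower panel the percent of rows listed at 0 in all 3 control libraries of each species. The dotted line marks row number 19000, above which F. ramosissima has at most 2.61% of such rows in any window and F. robusta at least 38.8%.

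Shared rows were more frequent at the low end of the numbering. In the 5 windows up to 5000, between 56.7% and 59.5% of rows were shared, and in the 11 windows from 6001 to 17000 between 32.9% and 41.7%. The shared rows made up 86.3% of the rows that F. ramosissima held at 1 TPM up to 19000, but 54.2% of those above. For F. robusta these shares were 75.8% and 88.1%. Most shared rows were present throughout: 10731 of 12427 (86.4%) had at least 1 TPM in each of the 6 libraries. In 286 rows the F. ramosissima value reached 1 TPM in only 1 library, and in 147 rows this was so in F. robusta. At the limit itself, the 263 rows with a lower mean between 1 and 1.1 TPM had a median log2 difference of −0.60, and the 283 rows just outside, with a lower mean between 0.9 and 1 TPM, had −0.57.

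The shared rows accounted for less of the transcript pool of the intermediate species. They held 85.1%, 85.3% and 84.7% of the listed TPM in the F. ramosissima libraries. In F. robusta they held 96.2%, 96.8% and 97.0%. The libraries of the species did not overlap (85.0% ± 0.342 and 96.7% ± 0.444, SD, n = 3 each). Rows held at 1 TPM by the own species alone took 14.6% ± 0.311 of the pool in F. ramosissima and 3.14% ± 0.406 in F. robusta (SD, n = 3 each). These rows were picked by their level in the same libraries, so the shares are given as a description, without a test. Since TPM is relative to the library total, whatever these rows take is missing from the shared rows.

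The number of rows with at least 1 TPM was 18322, 16725 and 18038 in F. ramosissima and 15702, 14680 and 14791 in F. robusta, without overlap. The excess of 2637 rows in the mean came from the rows above 19000 (10126 ± 472 against 6398 ± 166, SD, n = 3 each), since up to 19000 F. ramosissima had fewer (7569 ± 381 against 8660 ± 395). The exact permutation p (two-sided) was 0.1 for each of these 3 comparisons, with an adjusted p of 0.138 over 11 library measures. With 3 against 3 libraries an exact test cannot go below p = 0.1, so no library measure could pass the threshold of 0.05. At a limit of 5 TPM the species overlapped, with 10219 ± 930 rows in F. ramosissima and 10006 ± 596 in F. robusta (SD, n = 3 each; exact permutation p = 0.8, adjusted p = 0.8). The excess of rows in F. ramosissima was thus smaller than the spread between libraries at the higher limit.

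Rows above 19000 took 43.4%, 43.8% and 42.8% of the listed TPM in F. ramosissima and 38.8%, 39.6% and 39.6% in F. robusta (43.3% ± 0.486 against 39.3% ± 0.427, SD, n = 3 each; exact permutation p = 0.1, adjusted p = 0.138). Within the shared rows the order turned around. Shared rows above 19000 held 32.3% ± 0.823 in F. ramosissima and 38.9% ± 0.500 in F. robusta, and shared rows up to 19000 held 52.7% ± 0.491 and 57.8% ± 0.144 (SD, n = 3 each, without a test for the same reason).

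The most abundant transcript was the same row in both species. It was a row numbered up to 19000, with 36284, 30008 and 35202 TPM in F. ramosissima and 32741, 42440 and 29210 TPM in F. robusta. Its level overlapped between the species, with a log2 difference of −0.03 (adjusted p = 0.888, limma). The transcript pool was less concentrated in F. ramosissima, where the 10 most abundant rows held 17.4% ± 0.590 of the listed TPM, than in F. robusta, where they held 25.8% ± 2.86 (SD, n = 3 each; exact permutation p = 0.1, adjusted p = 0.138). For the 100 most abundant rows the values overlapped, with 44.8% ± 3.47 and 51.3% ± 3.82 (SD, n = 3 each; exact permutation p = 0.2, adjusted p = 0.244). The species had 7 of their 10, 61 of their 100 and 564 of their 1000 most abundant rows in common. Of the 100 most abundant rows of F. ramosissima, 11 were below 1 TPM in F. robusta and so are not shared rows.

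For the shared rows, the question was how many differed in level between the C3–C4 species and the C3 species by more than the replicates did. Replicates varied with a median SD of 0.34 in F. ramosissima and 0.29 in F. robusta on the log2(TPM + 1) scale. The species difference, always taken as F. ramosissima minus F. robusta, had a median size of 0.81 on this scale. It was larger than the pooled SD of the replicates in 9247 of the shared rows (74.4%), and the median standard error was 0.27. Rows without a species difference can also pass 1 pooled SD, and the share over all tested rows was not taken. In TPM as deposited, the median difference of the shared rows was −0.52, in size more than the replicate SDs. The count of 9247 therefore depends on the scale of the libraries. Differences on this scale understate the change of rows of low abundance.

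Of the shared rows, 6067 (48.8%) were called different at an adjusted p under 0.05 (limma, two-sided, Benjamini-Hochberg over all 19104 rows tested). In TPM as deposited, most calls were lower in the intermediate species. Up to 19000, 812 rows were called higher in F. ramosissima and 2330 lower. Above 19000, 553 were called higher and 2372 lower. Over all rows tested, 27.6% were called higher and 33.0% lower. The shared rows called higher were 12.1% up to 19000 and 9.64% above, below that background, and those called lower were 34.8% and 41.4%, above it. The background includes the 6677 tested rows that failed 1 TPM in 1 of the species, which had a median difference of 1.96. Non-overlapping groups gave a similar picture. Up to 19000, 1033 rows had all F. ramosissima libraries above all F. robusta libraries and 2715 had the reverse, and above 19000 the counts were 662 and 2730, against 30.4% higher and 37.7% lower over all rows tested.

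**Figure D2:**
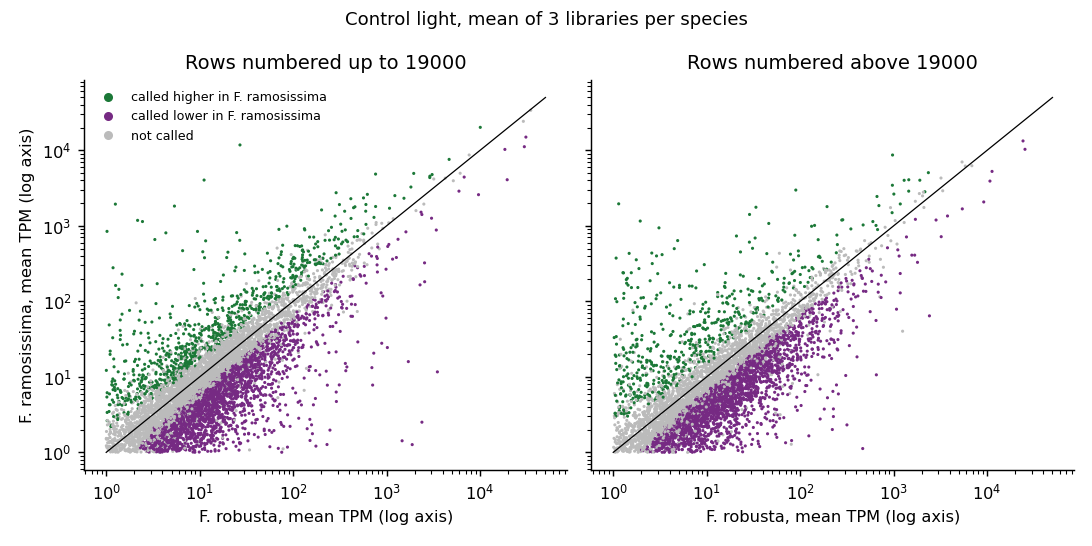
Mean TPM of each shared row in F. robusta (x axis) and F. ramosissima (y axis) under control light, n = 3 libraries per species, both axes logarithmic, for rows numbered up to 19000 (left) and above (right). Points are coloured by the limma call and the line marks equal levels. Rows called lower in F. ramosissima in TPM as deposited (2330 and 2372) lie below the line and rows called higher (812 and 553) above it, and both kinds are found from the lowest to the highest levels.

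The direction of the calls depended on how the libraries were put on a common scale. As deposited, the median difference of the shared rows was −0.44 up to 19000 (quartiles −1.07 and 0.25) and −0.62 above (quartiles −1.21 and 0.05). Median-ratio scaling, which sets the typical row with a value in all 6 libraries to no change, moved the median of all tested rows from −0.26 to 0.30 and that of the shared rows from −0.52 to 0.05. After this scaling 1787 rows up to 19000 were called higher and 1160 lower, and above 19000 1121 were called higher and 1179 lower (limma). The background over all tested rows became 36.1% higher and 19.3% lower. The shared rows called higher were then 26.7% up to 19000 and 19.5% above, still below that background. Those called lower were 17.3% and 20.6%, near it. Calls toward higher levels therefore went from 25.8% to 60.6% of the calls up to 19000, and from 18.9% to 48.7% above. Median-ratio scaling shifted rows together and left their order within a library as it was. The excess of lower calls thus depended on the scale chosen. An excess of lower calls was also present after quantile normalization, which gives each library the same distribution of values. That normalization ran over all 19104 tested rows. Among them were the 6677 that are not shared rows, with a median difference of 1.96 in TPM as deposited. Its result for the shared rows depends on those rows and is no separate evidence of direction. There 838 rows were called higher and 2876 lower up to 19000, and 556 and 2881 above. Rescaling each library to the total of its shared rows gave 998 and 1931 up to 19000, and 655 and 1950 above. Shares over all tested rows were not taken for quantile normalization or for this rescaling.

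A set of 3704 shared rows was called both in TPM as deposited and after median-ratio scaling, each in the same direction. How many of all tested rows were called under both was not counted, so the size of this set has no background. The set held 812 rows higher and 1160 lower up to 19000, and 553 higher and 1179 lower above. Every row called higher in the deposited TPM was in this set, while 2339 of the 4702 rows called lower were. This was largely set by the scaling, which moved the shared rows upward together, so that mainly lower calls could be lost. The set therefore has unlike limits by direction. Of its higher rows 19.5% differed by less than 2-fold, and of its lower rows 0.0%. The median difference of rows higher under both was 1.31 up to 19000 and 1.69 above, with medians of 37.6 and 34.1 TPM in F. ramosissima against 10.5 and 6.09 TPM in F. robusta. For rows lower under both it was −1.76 and −1.75, with medians of 3.72 and 4.58 TPM against 17.6 and 20.1 TPM. In this set, rows higher in the intermediate species had a higher median, in the species where they were high, than rows lower in it. The part of the unlike limits in this comparison was not tested.

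**Figure D3:**
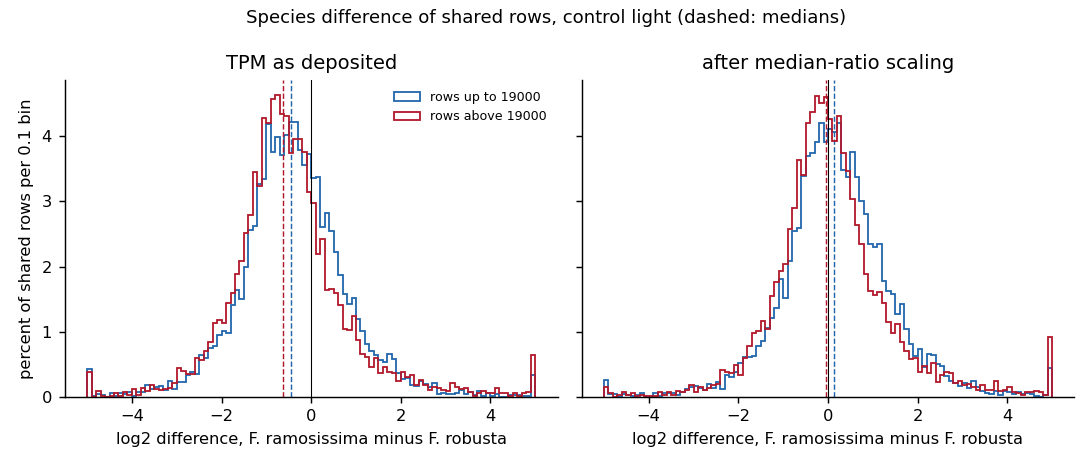
Distribution of the log2 difference, F. ramosissima minus F. robusta, over shared rows numbered up to 19000 (blue) and above (red), in percent of rows per bin, for TPM as deposited (left) and after median-ratio scaling (right). Dashed lines mark the medians, −0.44 and −0.62 on the left and 0.14 and −0.04 on the right, and values beyond the axis are counted in the outermost bins.

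The rows above 19000 can be set against those up to 19000 without regard to the scale of a library, by taking in each library the median of row-centred log2 values up to 19000 minus that above. This offset was 0.10, 0.07 and 0.11 in F. ramosissima and −0.08, −0.11 and −0.08 in F. robusta. Centring sets the species to opposite signs, so the signs say nothing, and the difference of the means was 0.18 (n = 3 each). The shared rows were picked by their level in these same libraries, so this difference is given as a description. Along the row numbers, the median difference of single windows was between −0.60 and −0.28 up to 19000 and between −0.78 and −0.48 above.

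Direction was also counted by abundance, taken as the mean over the 6 libraries. Up to 19000, 205 rows of 1 to 10 TPM were called higher in F. ramosissima and 1110 lower, and from 10 to 100 TPM 418 were higher and 1083 lower. More abundant rows there were more often called higher than lower. From 100 to 1000 TPM these were 165 and 120 (31.3% and 22.8% of the class), and over 1000 TPM 24 and 17. Over all rows tested, 27.6% were called higher and 33.0% lower in TPM as deposited. Above 19000, 165 rows of 1 to 10 TPM were higher and 1057 lower, and from 10 to 100 TPM 287 were higher and 1172 lower. There the lower calls were still the larger group from 100 to 1000 TPM, with 87 higher and 129 lower, and the numbers were equal over 1000 TPM, with 14 each. After median-ratio scaling, most calls among rows of 100 to 1000 TPM were higher in both groups of row numbers. Up to 19000 there were 238 higher (45.2% of the class) and 58 lower (11.0%). Above 19000 there were 136 higher (37.4%) and 65 lower (17.9%), near the 36.1% and 19.3% of all tested rows. Calls among rows of 10 to 100 TPM were then mostly higher up to 19000, with 937 and 544, but not above, with 543 and 628. Rows of 1 to 10 TPM gave 585 and 550 up to 19000 and 422 and 479 above. The offset between rows of at least 100 TPM and rows under 10 TPM, taken in each library as above, was 0.17, 0.43 and 0.26 in F. ramosissima and −0.36, −0.21 and −0.17 in F. robusta. Centring each row over the 6 libraries sets the species to opposite signs, so only the difference of the means, 0.53, is a measurement (n = 3 each). The rows and their abundance classes were picked by level in these same libraries, so this difference is given as a description. The limits on low rows and the pseudocount bear on the lowest class, and their part in this offset was not tested.

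In TPM as deposited, the balance of the directions changed with the size of the difference. At 2-fold or more between the means, 759 rows were higher and 2198 lower in F. ramosissima up to 19000, and 624 and 2223 above. At 10-fold or more the counts were 72 and 141 up to 19000, and 121 and 123 above. At 100-fold or more, more shared rows were higher than lower in F. ramosissima, with 13 and 9 up to 19000 and 21 and 3 above. Each of them was called. Shared rows reach 1 TPM in both species, so such a row must hold at least 100 TPM in the higher species. The part of this limit in the change of balance was not tested. In the opposite sense, 4016 shared rows (32.3%) differed by less than 1.5-fold.

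Single shared rows show the size that the contrast reached. They were taken as the row with the largest positive and the largest negative difference in each group of row numbers, among called shared rows without overlap and with at least 5 TPM in the higher species. What these genes encode is not given in the files.

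Gene07052 was close to absent from the C3 species and abundant in the intermediate one. It had 1735, 2392 and 1681 TPM in F. ramosissima and 0.92, 1.49 and 1.35 TPM in F. robusta, a log2 difference of 9.74 ± 0.22 (SE; adjusted p = 1.74e-06, limma). All F. ramosissima libraries were far above all F. robusta libraries. Under high light its level was 1973, 2615 and 2260 TPM in F. ramosissima and 0.15, 0.17 and 1.19 TPM in F. robusta. In the C4 species it was at 11.6, 7.11 and 27.2 TPM under control light, which is nearer to F. robusta.

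Gene13900 showed the reverse. It had 3605, 3881 and 2988 TPM in F. robusta and 0.11, 34.8 and 0 TPM in F. ramosissima, a log2 difference of −9.99 ± 1.36 (SE; adjusted p = 0.00098, limma). On the log2 scale the F. ramosissima libraries disagreed by more than those of any other of the 4 rows, since only replicate 2 was above 1 TPM. Without that library the mean of F. ramosissima would be 0.055 TPM, so this row is a shared row through 1 library, and the log2 difference would be −11.7. The high-light libraries of F. ramosissima had 28.1, 10.4 and 5.53 TPM, against 2080, 3462 and 1719 TPM in F. robusta. F. trinervia was low, like F. ramosissima, with 2.24, 0.83 and 0.61 TPM under control light.

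Gene23771, numbered above 19000, was again abundant in F. ramosissima alone. Its levels there were 4135, 956 and 769 TPM, a wide spread set by replicate 1, against 1.03, 1.3 and 1.1 TPM in F. robusta (log2 difference 9.40 ± 0.63, SE; adjusted p = 4.33e-05, limma). The lowest F. ramosissima library was still far above the highest of F. robusta. Under high light it had 2659, 1312 and 3140 TPM in F. ramosissima and 1.88, 1.92 and 0.8 TPM in F. robusta. The C4 species had 1.99, 2.02 and 1.32 TPM under control light, as low as the C3 species.

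Gene27868 had 402.5, 621 and 375 TPM in F. robusta and 0.59, 1.1 and 1.68 TPM in F. ramosissima, a log2 difference of −7.78 ± 0.30 (SE; adjusted p = 4.85e-06, limma). The libraries of F. robusta were high and even, and those of F. ramosissima lay around the limit of 1 TPM. Under high light the levels were 383, 288 and 429 TPM and 2.15, 0.93 and 0.51 TPM. F. trinervia lay between them, with 109, 97.9 and 121 TPM under control light. For none of the 4 rows was a difference of the species contrast between light levels called, with adjusted p-values of 0.447, 0.645, 0.931 and 0.877 in the order given here (limma interaction).

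**Figure D4:**
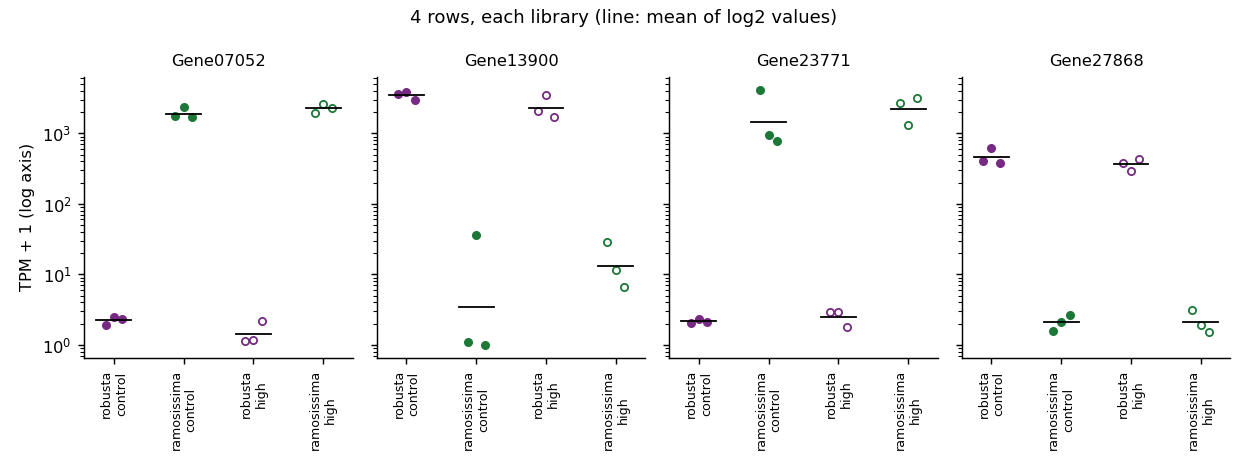
TPM + 1 (log axis) of the 4 shared rows chosen as the largest positive and the largest negative difference in each group of row numbers, in each of the 3 libraries of F. robusta (purple) and F. ramosissima (green) under control light (filled) and high light (open). Horizontal lines are means of log2 values. In each row the species are apart in every library at both light levels. On the log axis the widest spread is that of Gene13900 in F. ramosissima under control light, from 0 to 34.8 TPM.

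The species contrast was measured a second time in the high-light libraries, which share no sample with the control comparison. The differences of the shared rows under control and under high light had a Pearson correlation of 0.82 (Spearman 0.78, n = 6691 rows) up to 19000 and 0.81 (Spearman 0.74, n = 5736 rows) above. Rows of a library share its composition, so these values are descriptive. The sign was the same for 85.0% and 86.2% of rows, and the median difference under high light was −0.57 and −0.74. Of the rows called higher under control light, 765 of 812 up to 19000 and 518 of 553 above were higher under high light too, and in 604 and 421 of them the high-light groups did not overlap. Of the rows called lower, 2285 of 2330 and 2328 of 2372 were lower again, and 1845 and 1894 did not overlap. Over all tested rows, non-overlapping groups under high light made up 29.8% higher and 38.2% lower. Among rows not called under control light, 372 of 3549 up to 19000 and 262 of 2811 above were higher without overlap under high light, and 975 and 874 were lower.

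**Figure D5:**
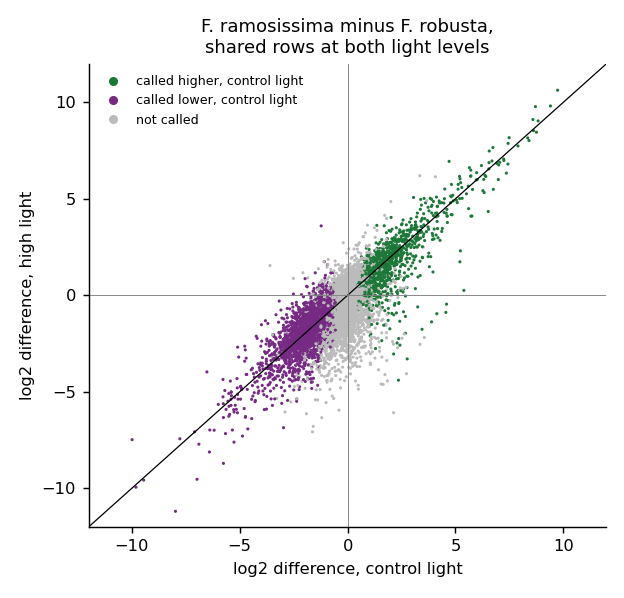
Log2 difference of each shared row, F. ramosissima minus F. robusta, under control light (x axis) and under high light (y axis), n = 3 libraries per species and light level. Points are coloured by the call under control light and the line marks equal differences. Called rows lie along the line at both ends, and 1283 of the 1365 rows called higher and 4613 of the 4702 called lower keep their sign.

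A change of the species contrast with light was called in few rows. In the 12 libraries of both species at both light levels, 7 of the 12395 shared rows that could be tested had an adjusted p under 0.05 for the interaction of species and light (limma, 8 residual degrees of freedom), against 0.0901% of all 18861 rows tested. Their interaction terms, the difference under high light minus that under control light, lay between −8.22 and 2.57. An unadjusted p under 0.05 was reached by 1361 shared rows (11.0%, limma interaction). Some rows pass this limit by chance, and the share over all 18861 rows was not taken for it. Whether 11.0% is particular to the shared rows is therefore unknown. The count of 7 was decided by single libraries. It was 99 without F. ramosissima control replicate 2, 50 without F. robusta high-light replicate 2, 17 without F. robusta control replicate 1, and 3 or fewer without F. ramosissima control replicate 3, F. robusta control replicate 2, F. robusta high-light replicate 1 or F. robusta high-light replicate 3.

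Set beside the C4 species under control light, the rows that separated F. ramosissima from F. robusta took no single order. Up to 19000, rows higher under both scalings had a median of 20.7 TPM in F. trinervia, and its mean lay between those of the other species in 353 of 812 rows, above both in 233 and below both in 226. For the rows lower under both scalings the median was 11.3 TPM, and F. trinervia lay between in 658 of 1160. Above 19000, rows higher in F. ramosissima had a median of 7.82 TPM in the C4 species, close to the 6.09 TPM of the C3 species. F. trinervia lay below both of the others in 271 of these 553 rows and was listed at 0 in all control libraries in 126. Of the rows lower there, 590 of 1179 had F. trinervia between. These placements were not tested, since they compare means taken from the same libraries that made the calls.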

How the data were processed

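Leaf RNA was sequenced per the labels as paired-end reads of 150 bp. The authors deposited 1 table of TPM values for all 18 libraries, a length-corrected unit relative to the library total. RSEM, a tool that estimates abundance, and edgeR stand in the submitters' processing notes without versions. The sources used here give neither the aligner nor the reference, nor how rows were paired between species. Column letters H and L were read as high and control light. Of 30041 rows, 1 ran on into the next and was left out. Reads that RSEM shares among near-identical copies cannot be followed in this table.

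Values were taken as log2(TPM + 1). Rows whose mean over the 6 control libraries of F. ramosissima and F. robusta was 1 TPM or more (19104) were tested with limma (version 3.58.1, R version 4.3.3; lmFit, eBayes with trend, two-sided, 4 residual degrees of freedom), with Benjamini-Hochberg adjusted p-values and a threshold of 0.05. Rows compared had a mean of at least 1 TPM in each species. The interaction of species and light was fitted on 12 libraries. Library values were compared by exact permutation tests (scipy version 1.17.1). Depth is unknown, since TPM does not keep it. The scripts were tested on simulated data.

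The rows, lists and tests were chosen with earlier results of these data known. The rule for named rows took, where nothing pairs numbers with names, the largest positive and negative difference in each group of row numbers among called, non-overlapping rows with a mean of 1 TPM or more in each species and at least 5 TPM in the higher species. Lists for the C4 cycle, photorespiration, the Calvin cycle, light harvesting and leaf markers need names and were not used. The main fit did not treat libraries as paired by replicate number. Alternatives were a pseudocount of 0.1, other filters, median-ratio, quantile and member-total scaling, other sets of libraries in the fit, species weights, the replicate number as a block and leaving out each library.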

Additional observations from a re-analysis of the deposited data

Results flagged for a closer look

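The species contrast was called different between light levels in 7 of 12395 shared rows (0.0565%). The test was of the difference itself (limma interaction of species and light, adjusted p under 0.05, 12 libraries). Over all 18861 rows tested the share was 0.0901%, so such calls were not more frequent among the shared rows. The interaction terms were between −8.22 and 2.57. The count moved between 1 and 99 when single libraries were left out, and it was 49 after median-ratio scaling.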

How the results depend on the processing

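Calls in the 2 groups of row numbers (3142 up to 19000 and 2925 above) stayed within 1.5 times under a pseudocount of 0.1, no filter, the 3 scalings, fits of 12 or 18 libraries, species weights and the replicate block. No row called in both of 2 fits had opposite directions, but calls were lost and gained. Under median-ratio scaling the higher calls among shared rows went from 1365 to 2908 and the lower ones from 4702 to 2339. A filter at 5 TPM, which keeps fewer rows, gave 1713 and 1549 calls and a median difference of −0.26 up to 19000. Median-ratio scaling turned the median up to 19000 to 0.14 and moved that above to −0.036, and quantile normalization moved the latter to −0.80. The cause was not tested. Of the 6067 calls, 3704 were shared with median-ratio scaling and 5819 with quantile normalization. Leaving out 1 library gave 2395 to 2945 and 2251 to 2767 calls, medians of −0.51 to −0.33 and −0.68 to −0.52, a difference of 3.78 to 4.28 percentage points in the share of TPM above 19000, and 2324 to 3122 more rows at 1 TPM in F. ramosissima. At a limit of 5 TPM this excess was 212 rows and at 0.1 TPM 5402 rows. The interaction count of 7 was 49 after median-ratio scaling and 1 to 99 when 1 library was left out. Deviations of same-numbered libraries of the species had correlations of 0.04, 0.08 and −0.14, and differently numbered pairs lay between −0.23 and 0.22. Whether same-numbered libraries have more than the number in common is not stated, and these values cannot decide it. With the replicate number as a block, 3185 and 2909 rows were called, and 12 for the interaction. The 4 rows named by number kept their direction and their call in all 64 alternative values, with adjusted p-values from 1.16e-12 to 0.00635 (limma). They were picked as the largest called differences of these same libraries. Keeping the call was therefore largely set by the choice and is no separate evidence for them. Unknown depth limits what a value of 0 can show.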
